A study of Mus musculus with 11 samples.

Results

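The 7 gene loci described here, Wdr72, Unc13c, Tmem26, Ugt8a, Adgrl4, Kcnip4 and Trap1a, carried many open chromatin regions in esophageal cells of SmoM2 mice and few or none in wild-type cells. They were chosen from that very difference and are 7 of the 10 loci with the highest SmoM2 over WT ratio of open regions among the loci called higher. A locus holds the open regions whose midpoint lies nearest to the body of that protein-coding gene, within 100 kb, and the 7 loci hold 107 of 124941 regions and are 7 of 15365 loci tested. Open chromatin was mapped by ATAC-seq, which uses a transposase to tag accessible DNA for sequencing, and each library is represented by the list of intervals that the authors called as open.

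The groups were, for the adult esophagus, Krt5-SmoM2-Sox9fl/fl mice (SmoM2-Sox9cKO, 3 libraries), Krt5-SmoM2 mice (SmoM2, 3 libraries) and wild-type mice (WT, 3 libraries), and, apart from these, Krt8YFP embryos of embryonic day 13 (Embryo, 2 libraries). SmoM2 is a constantly active form of Smoothened, the membrane protein that switches on Hedgehog signaling. Krt5 is a keratin of basal squamous cells, and the genotype name places SmoM2 under it. Sox9, a transcription factor found in many progenitor cell types, was floxed in the first group. How Sox9 was recombined and which part of it was removed were not given in the sources used here. Regions at the Sox9 locus (9 to 12 per SmoM2-Sox9cKO library, 9 to 11 in SmoM2 and 7 to 11 in WT) therefore do not check the deletion. SmoM2-Sox9cKO and SmoM2 cells were sorted for high EpCAM, an epithelial adhesion protein, and WT cells for low EpCAM, so against WT the genotype and the gate cannot be told apart. Embryo cells were sorted on YFP. The strain is CD1 for SmoM2 and WT and is not stated for SmoM2-Sox9cKO and Embryo, and adult ages are not stated either. The labels do not state whether the libraries of a group are from different mice. The p-values therefore speak only for the spread among these libraries, part or all of which may be technical.

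The 9 adult lists held 69026 to 87910 intervals, and the Embryo lists 24902 and 14255, so Embryo values are given as a description. No read numbers were at hand, and depth is unknown. Intervals at 4 Y-linked genes (Kdm5d, Eif2s3y, Uty and Ddx3y) numbered 8, 10 and 0 in SmoM2-Sox9cKO, 9, 9 and 9 in SmoM2, and 5, 0 and 0 in WT, so the libraries may differ in the sex of their mice. All 10 listed basal keratinocyte markers, among them Krt5, Krt14, Trp63 and Epcam, had open regions in every adult group (105 to 110 regions summed per SmoM2-Sox9cKO library, 94 to 118 in SmoM2 and 89 to 98 in WT).

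The 7 genes belong to different tissues by their known roles. Unc13c encodes Munc13-3, which primes synaptic vesicles for fusion, and Kcnip4 encodes a calcium-binding protein that joins voltage-gated Kv4 potassium channels in neurons. Ugt8a encodes the ceramide galactosyltransferase that makes the galactolipids of myelin. Wdr72 encodes a WD-repeat protein of intracellular trafficking that is needed for enamel maturation. Adgrl4 encodes an adhesion G protein-coupled receptor best known from blood vessel endothelium, Tmem26 a transmembrane protein used as a marker of beige fat cells, and Trap1a the mouse tumor rejection antigen P1A, an X-linked gene known from tumors and the germ line. An open region marks DNA that proteins can reach, such as a promoter or an enhancer, and is not a measure of expression.

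The promoter sequences of 6 of the 7 genes (7 windows, 2 of them of Kcnip4) were matched by symbol in RefSeq (GRCm38.p6), each from 250 bases before to 50 bases after a start site, and Wdr72 has no entry. The 4 windows shown are those whose start site lay in an open region of at least 2 SmoM2 libraries, or, for Unc13c, of 1 library of each SmoM2 genotype. They lie at chr10:68723496-68723795 on the plus strand (Tmem26), chr3:125938603-125938902 on the minus strand (Ugt8a), chr5:49285610-49285909 on the minus strand (Kcnip4) and chr9:73968988-73969287 on the minus strand (Unc13c). Each is written 5′ to 3′ in lower case, with the 50 bases from the start site on in capitals and, in Kcnip4, also the match to the AP-1 motif.
Tmem26: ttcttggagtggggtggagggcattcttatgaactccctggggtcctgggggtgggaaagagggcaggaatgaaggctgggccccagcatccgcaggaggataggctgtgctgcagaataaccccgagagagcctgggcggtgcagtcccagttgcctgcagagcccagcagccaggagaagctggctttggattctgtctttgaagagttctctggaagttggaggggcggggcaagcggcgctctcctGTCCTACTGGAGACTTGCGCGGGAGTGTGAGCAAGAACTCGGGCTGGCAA
Ugt8a: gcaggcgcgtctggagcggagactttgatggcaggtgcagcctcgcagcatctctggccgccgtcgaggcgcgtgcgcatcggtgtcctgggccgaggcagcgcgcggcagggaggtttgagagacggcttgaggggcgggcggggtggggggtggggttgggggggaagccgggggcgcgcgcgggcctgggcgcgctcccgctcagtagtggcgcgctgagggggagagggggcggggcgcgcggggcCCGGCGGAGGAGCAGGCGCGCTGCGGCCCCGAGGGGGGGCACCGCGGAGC
Kcnip4: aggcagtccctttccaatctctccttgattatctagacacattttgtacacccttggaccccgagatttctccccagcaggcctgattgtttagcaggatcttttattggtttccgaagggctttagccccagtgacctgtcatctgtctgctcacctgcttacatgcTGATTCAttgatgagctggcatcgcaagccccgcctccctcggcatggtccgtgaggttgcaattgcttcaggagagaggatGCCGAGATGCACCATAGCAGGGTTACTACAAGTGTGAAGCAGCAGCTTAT
Unc13c: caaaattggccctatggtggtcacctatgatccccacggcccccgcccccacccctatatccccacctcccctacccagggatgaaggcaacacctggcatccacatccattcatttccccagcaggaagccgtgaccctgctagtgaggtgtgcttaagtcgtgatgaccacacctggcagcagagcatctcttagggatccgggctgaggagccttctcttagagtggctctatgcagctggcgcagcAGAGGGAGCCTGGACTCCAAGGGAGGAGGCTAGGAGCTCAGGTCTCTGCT

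The Tmem26 window lay in a region open in 3 of 3 SmoM2-Sox9cKO, 3 of 3 SmoM2 and 0 of 3 WT libraries (chr10:68723504-68724729). The Ugt8a window, with 78.3% G and C against a median of 52.7% over all promoters of the table, lay in a region with the same counts that was also open in 1 Embryo library (chr3:125937598-125939294). The Kcnip4 window lay in a region of 0 SmoM2-Sox9cKO and 2 SmoM2 libraries (chr5:49285459-49286089), and the other Kcnip4 window in a region of 0 SmoM2-Sox9cKO libraries and 1 SmoM2 library (chr5:48599663-48599944). The Kcnip4 windows and the Unc13c window have their start sites inside the annotated gene bodies. The Unc13c window lay in a region of 1 SmoM2-Sox9cKO and 1 SmoM2 library (chr9:73968499-73969158). The region over the 5′ end of the Unc13c gene body (chr9:74007989-74008793) was also open in 1 SmoM2-Sox9cKO and 1 SmoM2 library. At the Adgrl4 and Trap1a windows no library had an open region.

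In the 7 windows, 5 motifs were searched on both strands: CCACCCA (Gli core), ACAATG and ACAAAG (Sox core), TGANTCA (AP-1) and CACGTG (E-box). The only match was TGATTCA in Kcnip4, at position -82 from the start site. Over all 32851 promoters of the table, CCACCCA was in 9.30%, ACAATG in 12.6%, ACAAAG in 18.7%, TGANTCA in 7.81% and CACGTG in 7.15%. A window without a match only lacks these letters.

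Among the genes of intracellular trafficking, Wdr72 (chr9:74110331-74283203, 14 regions, 10 of them in the gene body) had 11, 9 and 7 occupied regions in SmoM2-Sox9cKO, 10, 9 and 12 in SmoM2, 0 in each WT library, and 4 and 0 in Embryo. Both SmoM2 genotypes overlapped, and neither overlapped WT. Its strongest region in the SmoM2 lists lay 7.46 kb below the gene body (chr9:74102537-74103210) and was open in every library of both SmoM2 genotypes, with a fold enrichment over local background, the authors' value, of 9.68, 9.07 and 7.62 in the SmoM2-Sox9cKO lists and 9.52, 6.45 and 9.91 in the SmoM2 lists. The region over the lower-coordinate end of the gene (chr9:74109930-74110899) and one deep in the gene (chr9:74186837-74188070) had the same counts and were each also open in 1 Embryo library. Most of the Wdr72 regions lay near that end of the gene, as the map of region positions shows.

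Unc13c, whose body lies 102 kb from that of Wdr72 (chr9:73479422-74008155, 24 regions, 19 in the body), had 16, 2 and 3 occupied regions in SmoM2-Sox9cKO, 19, 11 and 12 in SmoM2, and 0, 3 and 0 in WT, with 0 in both Embryo libraries. The SmoM2-Sox9cKO libraries were split here: replicate 1 was within the SmoM2 range, while replicates 2 and 3 were within the WT range. Of the 24 regions, 10 were open in a single SmoM2 library, 8 of these in SmoM2 replicate 1 alone. The region chr9:73992993-73994251 was open in all 3 libraries of both SmoM2 genotypes and in no WT library, while chr9:73883681-73885335, also open in all 6, was open in 1 WT library too.

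Among the genes of membrane and surface proteins, Tmem26 (chr10:68723746-68782655, 9 regions, 2 in the body) had 7, 9 and 6 occupied regions in SmoM2-Sox9cKO, 9, 8 and 9 in SmoM2, and 0 in every WT and Embryo library. The SmoM2 genotypes overlapped, and 8 of the 9 regions were open in 3 of 3 SmoM2 and 0 of 3 WT libraries. The strongest lay in the gene body (chr10:68751157-68752942), with an authors' fold enrichment of 8.63, 12 and 12.2 in the SmoM2-Sox9cKO lists and 10.2, 9.12 and 11.4 in the SmoM2 lists.

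Kcnip4 (chr5:48389503-49525122, 1136 kb long, all 21 regions in the body) had 6, 5 and 0 occupied regions in SmoM2-Sox9cKO, 20, 10 and 9 in SmoM2, 0 in each WT library, and 1 and 0 in Embryo. The SmoM2-Sox9cKO and SmoM2 libraries did not overlap, but the SmoM2-Sox9cKO library at 0 equalled WT. SmoM2 replicate 1 stood apart from the others of its group, with 9 regions that no other SmoM2 library had, although its list was not the longest (80589 intervals, against 87910 in replicate 3). The region with the highest enrichment in the SmoM2 lists (chr5:48571968-48572883) was open in 2 of 3 SmoM2-Sox9cKO and 3 of 3 SmoM2 libraries.

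Adgrl4 (chr3:151437882-151545081, 12 regions, 4 in the body) had 6, 1 and 1 occupied regions in SmoM2-Sox9cKO, 8, 8 and 7 in SmoM2, 0 in each WT library, and 1 and 0 in Embryo. The adult groups did not overlap, with SmoM2-Sox9cKO replicate 1 close to the SmoM2 libraries and the other two close to WT. One distal region, 85.9 kb below the gene body (chr3:151351347-151352650), was open in every library of both SmoM2 genotypes and in no WT library.

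Ugt8a, the only enzyme among the 7 (chr3:125865272-125938682, 17 regions, 8 in the body), had 7, 4 and 4 occupied regions in SmoM2-Sox9cKO, 14, 14 and 15 in SmoM2, 0, 1 and 1 in WT, and 4 and 1 in Embryo. The 3 adult groups did not overlap, and SmoM2-Sox9cKO lay between SmoM2 and WT. The region with the highest enrichment lay 45.6 kb from the gene body on its 5′ side (chr3:125983828-125984715) and was open in every library of both SmoM2 genotypes. Inside the gene, chr3:125930623-125931910 was open in 1 of 3 SmoM2-Sox9cKO, 3 of 3 SmoM2, 0 of 3 WT and both Embryo libraries. The region at the 3′ end of the gene (chr3:125865294-125866222, beginning 22 bases inside it) was open in 0 of 3 SmoM2-Sox9cKO and 3 of 3 SmoM2 libraries, with an authors' fold enrichment of 8.01, 9.18 and 9.81 in the SmoM2 lists.

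Trap1a (chrX:139333683-139338169, 10 regions, none in the body) had 2, 2 and 1 occupied regions in SmoM2-Sox9cKO, 8, 5 and 8 in SmoM2, and 0 in every WT and Embryo library. No group overlapped another among the adult libraries. The nearest region lay 29.0 kb from the short gene body, so the gene serves here only as the nearest annotated one. The region open in all 6 libraries of both SmoM2 genotypes lay 54.7 kb above the gene (chrX:139392535-139393276).

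**Figure D1:**
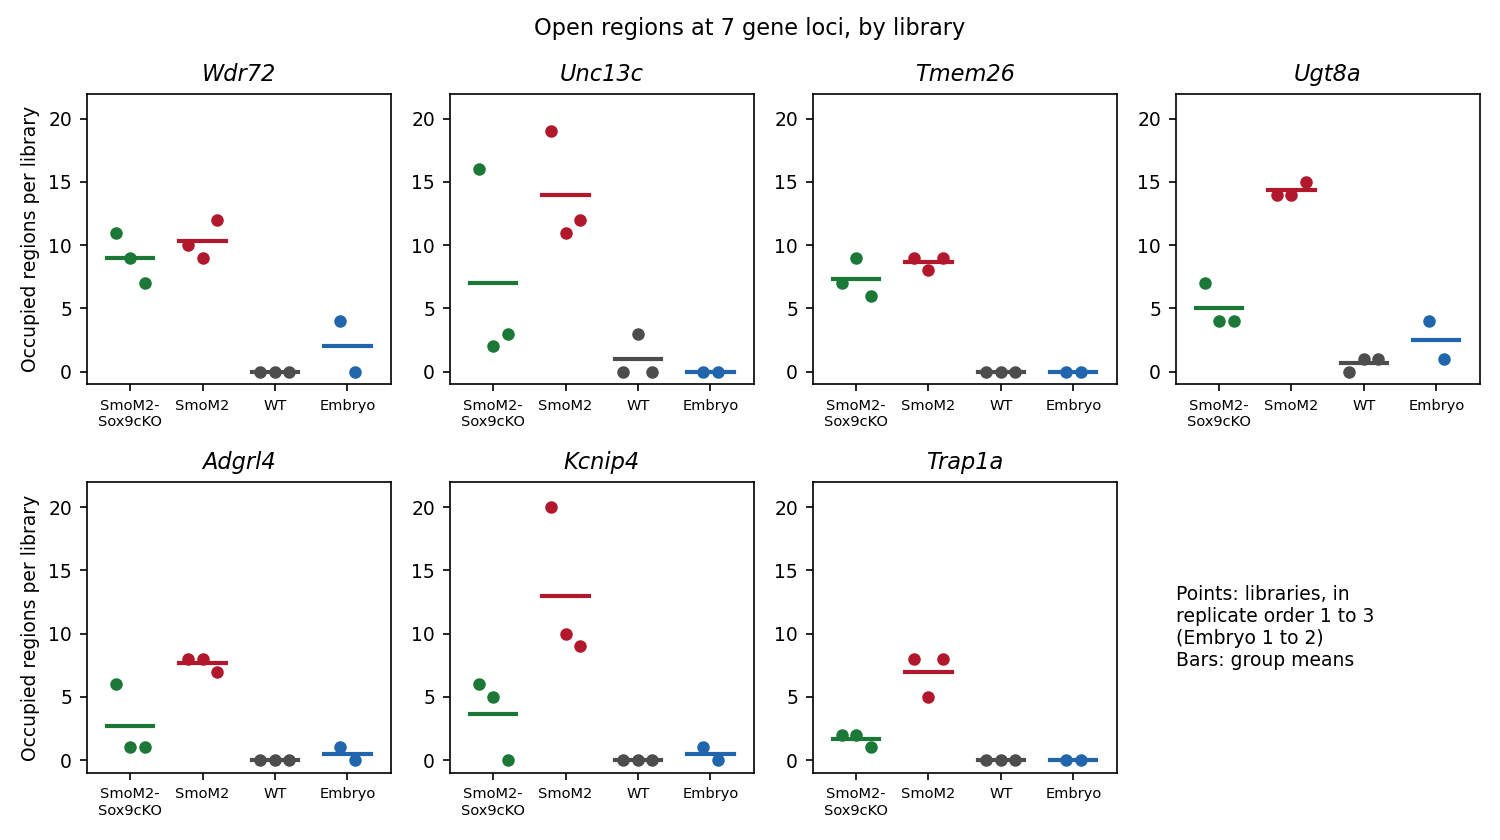
Occupied regions per library (vertical axis, number) at each of the 7 loci for SmoM2-Sox9cKO, SmoM2, WT and Embryo, with points for libraries in replicate order and bars for group means. Wdr72 and Tmem26 had similar numbers in both SmoM2 genotypes, Trap1a had 1 to 2 regions in SmoM2-Sox9cKO and 5 to 8 in SmoM2, and Unc13c was split between 16 and 2 to 3 regions in SmoM2-Sox9cKO.

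**Figure D2:**
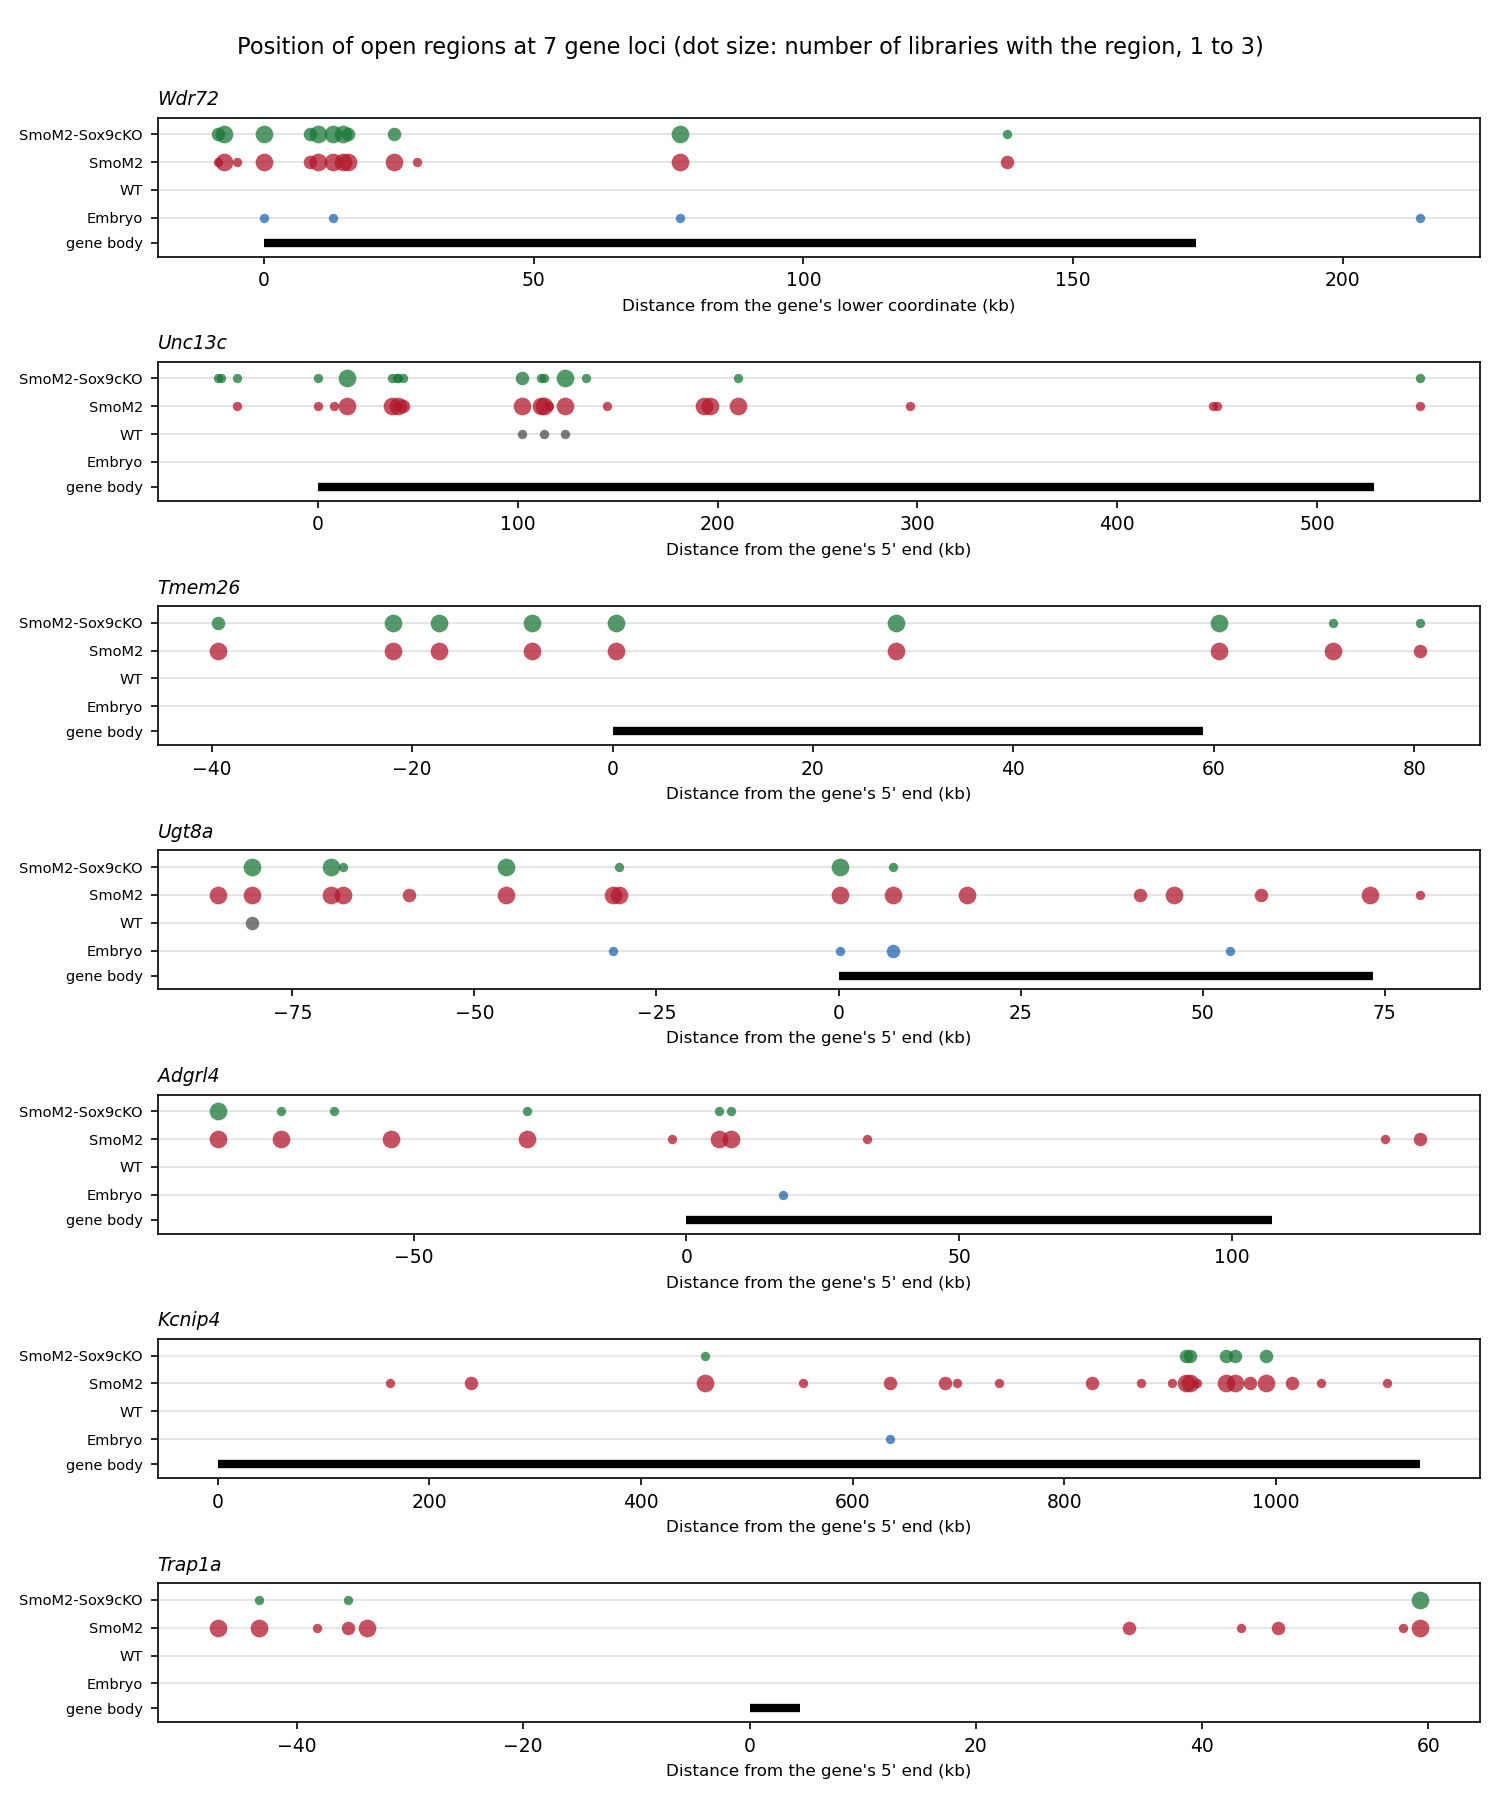
Position of every region at each locus relative to the gene (horizontal axis, kb, black bar for the gene body), by group, with the dot size giving the number of libraries that had the region (1 to 3). Wdr72 regions gather at the lower-coordinate end of the gene, all Kcnip4 regions lie in the gene body, and all Trap1a regions lie outside it.

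Over the 7 loci together, the sums were 55, 32 and 22 regions in SmoM2-Sox9cKO, 88, 65 and 72 in SmoM2, 0, 4 and 1 in WT, and 10 and 1 in Embryo. Means were 36.3 ± 16.9 regions in SmoM2-Sox9cKO, 75 ± 11.8 in SmoM2 and 1.67 ± 2.08 in WT (SD, n = 3 each). Of the 107 regions, 64 lay in a gene body and 43 outside, 4 were open in any WT library, 7 in no SmoM2 library and 29 in a single SmoM2 library, 20 of these in SmoM2 replicate 1. Of the 107, 4 were open in SmoM2-Sox9cKO without being open in SmoM2. The choice of loci for many SmoM2 regions keeps this number low, and the share over all regions was not counted. In bulk libraries, fewer cells of a kind and less opening per cell cannot be told apart.

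The choice of loci rests on the SmoM2 and WT libraries, so this contrast is given without a test. Over all loci, limma called 799 higher (5.2%) and 884 lower (5.75%) in SmoM2 than in WT at an adjusted p under 0.05, and without scaling by library total it called 764 higher and 341 lower. The median log2 change over all tested loci was -0.12. Among the called loci the 7 hold places 1 (Kcnip4), 3 (Wdr72), 4 (Tmem26), 6 (Adgrl4), 8 (Unc13c), 9 (Trap1a) and 10 (Ugt8a) by log2 change, between which stand Pdgfd, Kit and Ptprd. Just inside the first 10 lay Ugt8a, with a log2 change of 3.71, and just outside lay Clstn2, with 3.61 (17, 20 and 12 regions in SmoM2-Sox9cKO, 32, 21 and 31 in SmoM2, and 2, 2 and 1 in WT). Of the tested loci, 64 had no region in any WT library, and 7 of these had at least 5 regions in every SmoM2 library. Those 7 are not the same as the loci described here. They include Pdgfd and Kit and leave out Unc13c and Ugt8a, which had regions in WT.

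Whether these loci stayed open when Sox9 was floxed was asked by setting SmoM2-Sox9cKO against SmoM2. Of the 7 loci, 1 passed the test, Trap1a, which fell by 1.74 on the log2 scale (SE 0.21, 95% interval -2.21 to -1.27, limma adjusted p = 0.0120), with 1.67 ± 0.58 regions in SmoM2-Sox9cKO and 7 ± 1.73 in SmoM2 (SD, n = 3 each). Over all loci limma called 66 lower (0.43%) and 65 higher (0.423%), with a median log2 change of 0.06. The SmoM2 libraries had chosen the 7 loci for being high, so a lower value in SmoM2-Sox9cKO is favoured by the choice. The Trap1a call was kept in 19 of 20 alternatives and missed the threshold when at least 50% of a region had to be covered (limma adjusted p = 0.0523). A kept call is favoured by the choice too, and is no sign of stability. With Y-linked intervals, present or not, in the fit, the limma adjusted p was 0.0201.

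At 3 further loci the SmoM2-Sox9cKO libraries lay below all SmoM2 libraries without passing the test over all loci. The choice of loci for high SmoM2 values favours this, and the share of all loci so separated was not counted. Ugt8a averaged 5 ± 1.73 regions in SmoM2-Sox9cKO and 14.3 ± 0.58 in SmoM2, a log2 change of -1.41 (95% interval -2.21 to -0.61, limma adjusted p = 0.143). It passed in 4 of 21 alternatives, at limma adjusted p from 0.00231 to 0.0386. Among them were the fit without WT replicate 1 (0.0215) and that of only the 6 libraries compared (0.0386). The SE was 0.17 in the 6-library fit and 0.35 in the main fit, which also takes in the spread of the WT libraries. Adgrl4 averaged 2.67 ± 2.89 and 7.67 ± 0.58 regions in SmoM2-Sox9cKO and SmoM2, a log2 change of -1.68 (95% interval -2.71 to -0.64, limma adjusted p = 0.182). It passed in 2 of 21 alternatives, with covered base pairs (log2 change -1.80, limma adjusted p = 0.0498) and without SmoM2-Sox9cKO replicate 1 (log2 change -2.33, limma adjusted p = 0.000533). Kcnip4 averaged 3.67 ± 3.21 and 13 ± 6.08 regions in SmoM2-Sox9cKO and SmoM2, a log2 change of -2.22 (95% interval -4.07 to -0.37, limma adjusted p = 0.336). Without SmoM2-Sox9cKO replicate 3, which had no region there, it was -1.06 (limma adjusted p = 0.338).

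At the remaining loci the genotypes overlapped. Wdr72 averaged 9 ± 2 regions in SmoM2-Sox9cKO and 10.3 ± 1.53 in SmoM2, with a log2 change of -0.14 and a 95% interval of -0.47 to 0.19 (limma adjusted p = 0.803). Tmem26 averaged 7.33 ± 1.53 and 8.67 ± 0.58, with a log2 change of -0.18 and an interval of -0.54 to 0.18 (limma adjusted p = 0.803). These 2 intervals were the narrowest of the 7. The Unc13c interval was wide, from -3.22 to 0.49 around -1.37 (limma adjusted p = 0.633), with 7 ± 7.81 regions in SmoM2-Sox9cKO and 14 ± 4.36 in SmoM2. Without SmoM2-Sox9cKO replicate 1 the Unc13c log2 change was -2.14 and still did not pass (limma adjusted p = 0.319).

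**Figure D3:**
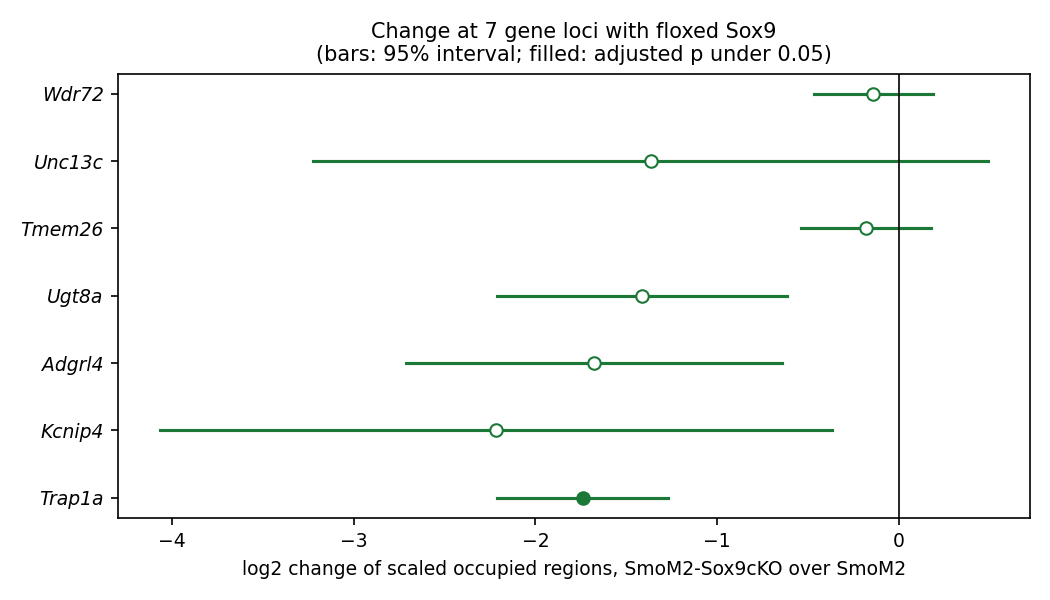
Log2 change of scaled occupied regions, SmoM2-Sox9cKO over SmoM2 (horizontal axis), at the 7 loci, with 95% intervals as bars and a filled point where the limma adjusted p was under 0.05. Trap1a is the filled point at -1.74, and Wdr72 and Tmem26 lie near 0 with short bars.

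Set against WT, SmoM2-Sox9cKO passed the test at 5 of the 7 loci, all higher. Over all loci limma called 613 higher (3.99%) and 525 lower (3.42%), and without scaling 508 higher and 261 lower, with a median log2 change of -0.06. All 7 loci passed the filter of a mean of 1 region, but 5 of them had no region in WT and passed it through the SmoM2 genotypes alone, and the WT libraries had chosen them for being low, so the count of 5 is no support for the choice. The limma adjusted p-values were 9.74e-07 for Wdr72, 3.24e-06 for Tmem26, 0.000941 for Trap1a, 0.00544 for Ugt8a and 0.0199 for Adgrl4. Where every WT library was at 0, only the library totals set the spread of that group, which makes p-values small, and no fold is given. Ugt8a, with regions in both groups, averaged 5 ± 1.73 in SmoM2-Sox9cKO and 0.667 ± 0.58 in WT, a log2 change of 2.30 (SE 0.35).

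Since the WT libraries chose these loci for being low, a call kept under an alternative is no sign of stability. The calls at Wdr72, Tmem26 and Ugt8a were made in all 21 alternatives run for each, and that at Trap1a in 18 of 19 (limma adjusted p = 0.139 with at least 50% of a region covered). The Adgrl4 call held in 14 of 21 and was lost without any one of the WT replicates (limma adjusted p from 0.0549 to 0.0569) and in 4 other settings, up to 0.537 with a 20 kb locus. Unc13c (log2 change 2.39, limma adjusted p = 0.123) and Kcnip4 (limma adjusted p = 0.132) did not pass. Unc13c passed in 2 of 21 alternatives, with covered base pairs (limma adjusted p = 0.0275) and without WT replicate 2, which held its only WT regions (limma adjusted p = 0.0289). Kcnip4 passed in 1 of 21, without SmoM2-Sox9cKO replicate 3 (limma adjusted p = 0.000816).

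The same was followed region by region. A region was counted as gained where it was open in 3 of 3 SmoM2 and 0 of 3 WT libraries, which held for 8637 of all 124941 regions (6.91%) and for 50 of the 107 regions at the 7 loci, a share that the choice of loci fixes. Ugt8a had 11 of them, Wdr72 and Tmem26 8 each, Unc13c 7, Adgrl4 and Kcnip4 6 each, and Trap1a 4. The SmoM2-Sox9cKO libraries took no part in this definition. At Wdr72, 8, 8 and 6 of 8 gained regions were open in SmoM2-Sox9cKO replicates 1, 2 and 3, and at Tmem26 7, 8 and 6 of 8. At Ugt8a the numbers were 6, 3 and 3 of 11, and at Trap1a 1, 2 and 1 of 4. Unc13c (5, 1 and 1 of 7) and Adgrl4 (5, 1 and 1 of 6) followed replicate 1, while Kcnip4 had 6, 5 and 0 of 6.

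Of the 50 gained regions, 38 (76%), 28 (56%) and 18 (36%) were open in SmoM2-Sox9cKO replicates 1, 2 and 3, against 73.3%, 76.3% and 51.5% of all gained regions of the genome. Over the 3 libraries, 18 of the 50 (36%) were open in all 3 SmoM2-Sox9cKO libraries, against 44.9% of all gained regions, and 10 (20%) in none, against 13.4%. Another 14 (28%, against 17.0%) were open in 1 library, for 12 of them replicate 1, and 8 (16%, against 24.8%) in 2. The 18 regions kept in all libraries comprised 6 of Wdr72, 6 of Tmem26, 3 of Ugt8a and 1 each of Unc13c, Adgrl4 and Trap1a. The 10 absent from all comprised 5 of Ugt8a, 2 of Unc13c, 2 of Trap1a and 1 of Adgrl4. These shares are a description, since regions of a locus are not independent.

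**Figure D4:**
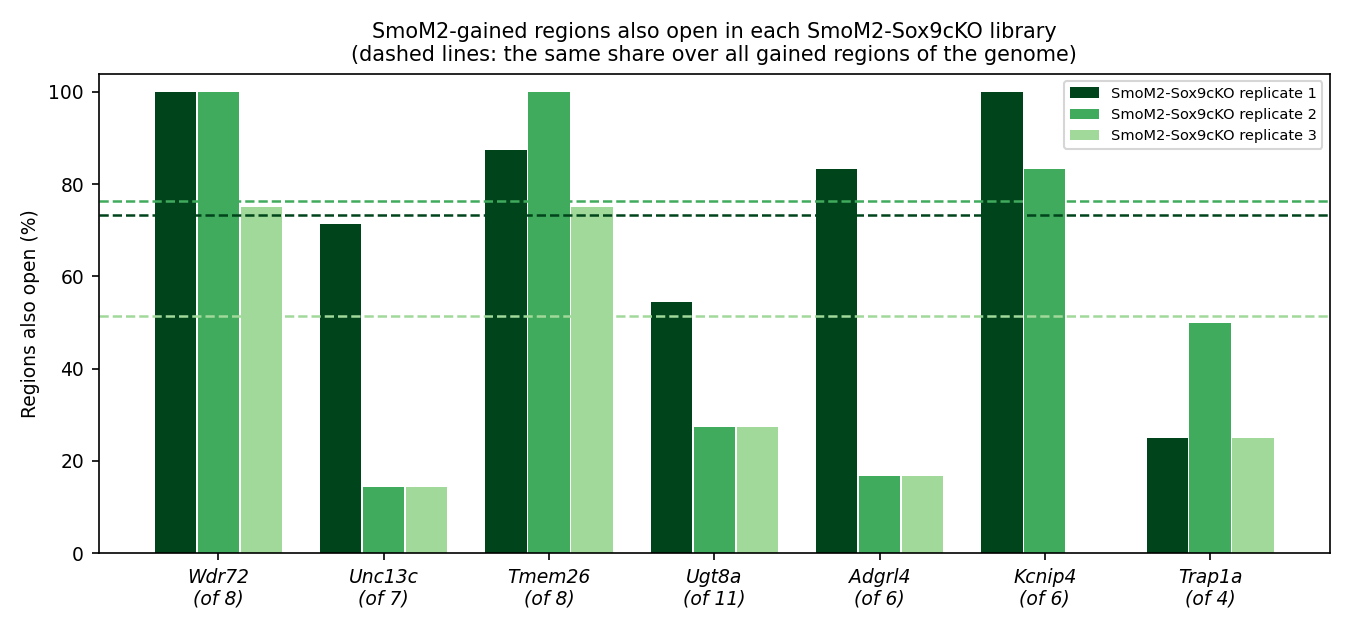
Share of the gained regions of each locus that were also open in each SmoM2-Sox9cKO library (vertical axis, percent), with dashed lines for the same share over all gained regions of the genome. Wdr72 and Tmem26 are at 75% or more in every library, and Kcnip4 is at 100%, 83.3% and 0%.

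The gained regions were also set by their enrichment in the SmoM2 lists. Over all of them the median of the authors' fold enrichment in SmoM2 was 4.24 for regions open in 0 SmoM2-Sox9cKO libraries, 4.31 in 1, 4.77 in 2 and 5.72 in 3. At the 7 loci the medians were 4.32, 5.53, 7.3 and 7.0 in the same order. At a fold enrichment of 8 or more, a threshold chosen after the values were seen, 32 of 1012 gained regions of the genome (3.16%) were open in no SmoM2-Sox9cKO library and 77.3% in all 3. At the 7 loci 14 gained regions reached that value, of which 8 were open in all 3 and 1 in none, the region at the 3′ end of Ugt8a.

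**Figure D5:**
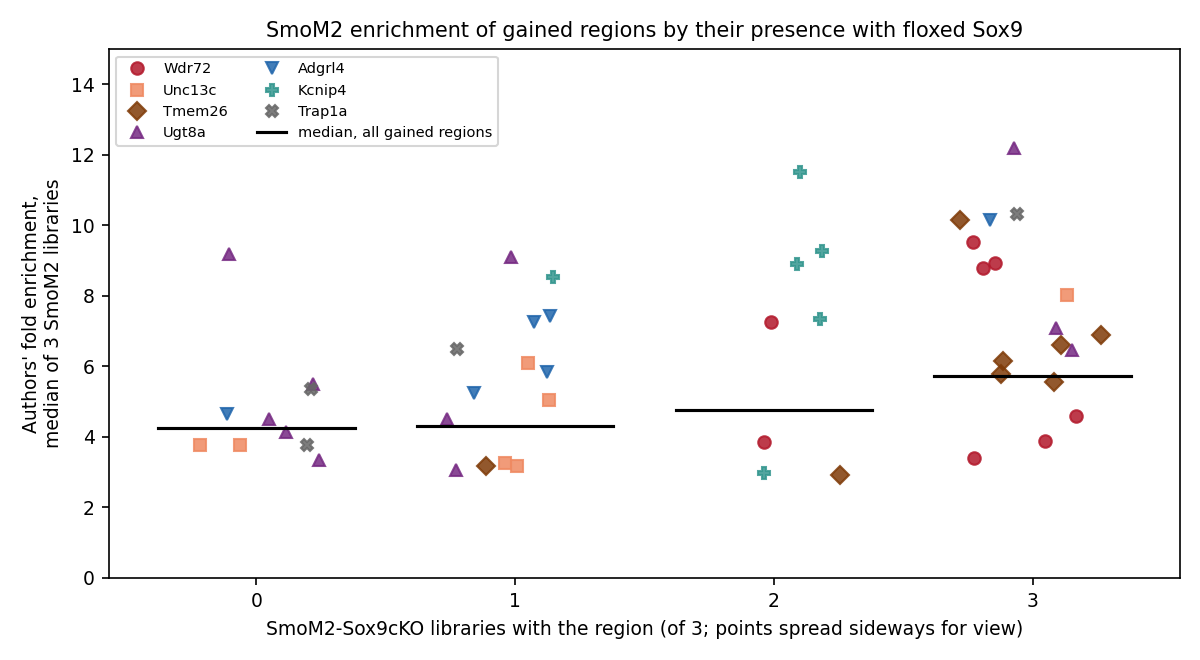
Median fold enrichment of each gained region over the 3 SmoM2 lists (vertical axis, the authors' values) by the number of SmoM2-Sox9cKO libraries that had the region (horizontal axis), with lines for the medians of all gained regions of the genome. The Ugt8a region at 9.18 with 0 libraries lies far above the median of 4.24 of its column.

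The 2 loci on each side of these genes gave 24 other loci, of which 19 were tested. In SmoM2-Sox9cKO against SmoM2, limma called 0 of them higher and 0 lower, beside 0.423% and 0.43% of all loci. At an unadjusted limma p under 0.05, 0 were higher and 3 lower, and the share of all loci at that level was not counted. Against WT, SmoM2-Sox9cKO had 2 neighbors called lower, Adgrl2 and Rnf128, and none higher. In SmoM2 against WT, 1 was called higher and 2 lower. The one called higher was Slit2, an axon guidance ligand, 81.8 kb from Kcnip4, with 6, 4 and 2 regions in SmoM2-Sox9cKO, 8, 5 and 7 in SmoM2, and 1, 2 and 1 in WT (limma adjusted p = 0.00692, SmoM2 over WT). Onecut1, on the other side of Wdr72 from Unc13c, had 11, 10 and 9 regions in SmoM2-Sox9cKO, 11, 9 and 11 in SmoM2, and 7, 11 and 12 in WT. Ndst4, the nearest gene to Ugt8a, had 1 region in 1 SmoM2 library and none in the other adult libraries.

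The distance between scaled log2 values was taken over the 9 adult libraries. These include the SmoM2 and WT libraries that chose the loci, so nearness among loci of this pattern is favoured by the choice. By this distance, Wdr72 and Tmem26, which lie on different chromosomes, were each other's nearest locus among all tested (Euclidean distance 0.791). Next to both stood Kit, which encodes a receptor tyrosine kinase, with 4, 5 and 4 regions in SmoM2-Sox9cKO, 9, 6 and 9 in SmoM2 and 0 in WT, and Nox3, which encodes an NADPH oxidase of the inner ear. For Adgrl4 the nearest locus was Trap1a (1.69), then Ptger2 and Tm4sf4, and for Trap1a it was Olfr16 (1.51), then Tm4sf4 and Adgrl4. For Kcnip4 it was Pdgfd (2.20), a growth factor gene with 1, 6 and 0 regions in SmoM2-Sox9cKO, 15, 10 and 12 in SmoM2 and 0 in WT, then Adgrl4 and Trap1a. For Ugt8a it was the potassium channel gene Kcnb2 (1.55), then Zcchc7 and Wif1, and for Unc13c it was Ugt8a (2.56), then Ppfia2 and Kcnb2.

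The partners of these genes in their known pathways were followed as lists. In SmoM2-Sox9cKO against SmoM2, 1 of 47 tested partners was called, Mog, beside 0.43% of all loci called lower and 0.423% called higher. Mog, a myelin gene, had 1 region in each SmoM2-Sox9cKO library and 2 in every SmoM2 library (log2 change -0.68, limma adjusted p = 0.0243). Its spread again comes only from library totals. Of the vesicle priming genes around Unc13c, 14 of 14 were tested, and in SmoM2-Sox9cKO against WT 2 were called higher (Snap25 and Syt1) and 2 lower (Unc13d and Rims2). In SmoM2 against WT 3 were higher (Snap25, Syt1 and Erc1), and Unc13d and Rims2 were among those called lower. Snap25, a SNARE protein of vesicle fusion, had 14, 13 and 12 regions in SmoM2-Sox9cKO, 9, 9 and 10 in SmoM2, and 3, 5 and 5 in WT (limma adjusted p = 0.000374, SmoM2-Sox9cKO over WT). The names of list genes here and below, other than Mog, were chosen after their values were seen.

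Of the Kv4 channel genes around Kcnip4, 7 of 8 were tested, and 1 was called, Dpp10, an auxiliary subunit of these channels, higher in SmoM2 than in WT (limma adjusted p = 0.00160). Dpp10 had 5, 4 and 4 regions in SmoM2-Sox9cKO, 16, 11 and 9 in SmoM2, and 1, 3 and 2 in WT, and its log2 change of -1.28 in SmoM2-Sox9cKO against SmoM2 did not pass (limma adjusted p = 0.104). Of the myelin genes around Ugt8a, 10 of 12 were tested, with Galc, which breaks galactolipids down, called lower in both SmoM2 genotypes than in WT, and Mog higher in SmoM2 than in WT. Of 5 tested enamel genes, limma called 0 in the 3 comparisons (at an unadjusted p under 0.05, 0 in SmoM2-Sox9cKO against SmoM2, 1 in SmoM2-Sox9cKO against WT and 1 in SmoM2 against WT), and Amelx, Enam and Dspp had no region in any adult library. Among the 3 related receptors of Adgrl4, Adgrl2 was called lower in SmoM2-Sox9cKO than in WT. Of 7 tested beige fat genes, Tnfrsf9 was higher in both SmoM2 genotypes than in WT, and Ppargc1a, a coactivator of mitochondrial genes, was lower in SmoM2 than in WT. Of 10 listed germ line and tumor genes, all X-linked except Mageb3 on chromosome 2, 7 had no region in any adult library. Tex11 alone was tested, higher in SmoM2 than in WT (limma adjusted p = 0.0280). The calls come from limma's fit over all loci. The list medians of the log2 change in SmoM2-Sox9cKO against SmoM2 were 0.05 for enamel, 0.06 for vesicle priming, myelin, Kv4 and beige fat genes, and -0.18 for the related receptors, beside 0.06 over all loci. In SmoM2-Sox9cKO against WT they were -0.06 for enamel, myelin and beige fat genes, -0.10 for vesicle priming, -0.33 for Kv4 genes and -0.34 for the related receptors, beside -0.06 over all loci. In SmoM2 against WT they were -0.12 for enamel, myelin and beige fat genes, -0.21 for vesicle priming, -0.61 for Kv4 genes and -0.16 for the related receptors, beside -0.12 over all loci.

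Markers of other cell types were read beside these values, and their part in the results was not tested. Of 13 endothelial markers, the cell type Adgrl4 is known from, all had open regions in each adult group, with sums of 87 to 88 regions per SmoM2-Sox9cKO library, 75 to 90 in SmoM2 and 67 to 80 in WT. Pecam1, Cdh5, Tek and Emcn were called higher and Esam lower in SmoM2-Sox9cKO than in WT, and Pecam1, Cdh5 and Emcn higher and Flt1 and Esam lower in SmoM2 than in WT. The 8 neuronal markers summed to 25 to 30 regions in SmoM2-Sox9cKO, 22 to 27 in SmoM2 and 13 to 18 in WT, with Snap25 and Stmn2 higher in both SmoM2 genotypes than in WT and Elavl4 at 0 in SmoM2-Sox9cKO. The 8 glial markers summed to 29 to 34, 30 to 31 and 27 to 35 regions in SmoM2-Sox9cKO, SmoM2 and WT, with 0 calls by limma against WT (0 also at an unadjusted p under 0.05), and S100b was at 0 in both SmoM2 genotypes. Immune markers summed to 15 to 19, 14 to 19 and 10 to 15 in the same order. Of the 6 tested, limma called 1 in SmoM2 against WT, Ptprc, which was higher. Ptprc had 1 region in each SmoM2-Sox9cKO library, 6, 1 and 2 in SmoM2 and 0 in every WT library, where a group at 0 makes p-values small. Fibroblast markers summed to 22 to 26, 20 to 21 and 20 to 22, muscle markers to 9 to 14, 10 to 14 and 14 to 18, and simple epithelial markers to 30 to 39, 30 to 38 and 25 to 28. Among these, Twist2 of fibroblasts was called higher in both SmoM2 genotypes than in WT, Acta2 of muscle lower in both, Cnn1 lower in SmoM2-Sox9cKO and Dpt lower in SmoM2. In SmoM2-Sox9cKO against SmoM2, limma called 0 of 58 tested markers, beside 0.423% of all loci called higher and 0.43% called lower. At an unadjusted limma p under 0.05 there were 7 markers, all higher, and the share of all loci at that level was not counted.

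In the Embryo lists, which are shorter, 10 of the 107 regions were open, 10 in replicate 1 and 1 in replicate 2. Wdr72 and Ugt8a had 4 each in replicate 1, and Adgrl4 and Kcnip4 1 each. Of the 50 gained regions, 6 were open in an Embryo library, 3 at Wdr72 and 3 at Ugt8a, while 4.78% of all gained regions of the genome were. The remaining Embryo regions included 1 at 41.4 kb above Wdr72 (chr9:74324181-74324980) that was open in no adult library. Unc13c, Tmem26 and Trap1a had no open region in either Embryo library.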

How the data were processed

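ATAC-seq was run on sorted mouse esophageal cells, in 11 paired-end libraries per the labels' protocols. Per the submitters' processing notes, the authors' tools were Trimmomatic, Bowtie2, Picard, MACS2 and deepTools, with GRCm38 (mm10) as the build. For versions, settings and the order of steps: not given in the sources used here. Each library has its own interval list, with no pooling shown in the files. The score, the ratio (fold enrichment over local background), the −log10 p-value and the −log10 q-value of each interval were deposited by the authors, and the score was not used. With no read numbers at hand, depth is unknown, and counting error has no interval.

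From these lists, intervals on chromosomes 1 to 19 and X were merged into 124941 regions (median width 693 bp), and a region was occupied where a library's interval overlapped it by at least 1 bp. A region belonged to the protein-coding gene whose body was nearest, within 100 kb (GRCm38.p6 RefSeq table, 21631 genes, ties to the shortest gene and then by symbol), and 111956 regions (89.6%) had one. Loci with a mean of at least 1 region over the 9 adult libraries were tested with limma 3.58.1 (R 4.3.3, with the variance trend and without the robust option), fitted to log2((occupied regions + 0.5) / (total occupied regions + 1) × 100000), with 3 groups in one fit and Benjamini-Hochberg adjustment over 15365 loci at 0.05. The log2 changes are on this scale, which understates the change of low loci. The limma fit was also run on simulated counts as a check of the code, which does not measure its error in these data.

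The members, lists, tests and alternatives were chosen with earlier results of these data known. Named are the members, the 2 loci on each side, the 3 loci nearest in Euclidean distance, list genes called in SmoM2-Sox9cKO against SmoM2, and per member up to 4 gained regions of highest SmoM2 enrichment and regions over a gene end, of which the text describes some. Replicate numbers of the titles did not pair the libraries: deviations from group means of same-numbered libraries correlated at -0.07 to 0.08 (9 pairs). Alternatives covered intervals, regions, reach, scaling, pseudocount, filter, libraries and a replicate block. The planned covariate, any interval on chromosome Y, did not vary and was replaced, after the data were seen, by intervals at 4 Y-linked genes. Some results that this rule or the lists cover are not reported here.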

Additional observations from a re-analysis of the deposited data

How the results depend on the processing

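At the 7 loci no log2 change turned its sign under the alternatives run, while the balance of higher to lower calls over all loci did turn under some. The choice of loci for high SmoM2 and low WT values fixes or favours the signs at the 7 loci. Their keeping is therefore no sign of stability. Of the values of single loci, 546 stayed on their side of the threshold or within the spread, 41 moved, 9 newly passed and 9 no longer passed. Of the counts and sums over loci, 113 stayed and 37 moved, and the cause was not tested. In SmoM2-Sox9cKO against SmoM2, 65 loci were higher and 66 lower. These numbers became 17 and 22 with intervals of −log10 q of at least 5, 27 and 36 with at least 50% of a region covered, 100 and 115 with covered base pairs, 98 and 120 with no filter, and 13 and 21 with Y-linked intervals as covariate, and 29 were lower with only the 6 libraries compared. In SmoM2-Sox9cKO against WT (613 higher, 525 lower), covered base pairs gave 1047 and 1072, and no scaling gave 261 lower. In SmoM2 against WT (799 higher, 884 lower), covered base pairs gave 1275 and 1499, Y-linked intervals as covariate 392 and 335, and no scaling 341 lower. With the replicate block, a paired fit, SmoM2-Sox9cKO against SmoM2 gave 37 higher and 38 lower, and no call at the 7 loci changed. The mean sum over the 7 loci in SmoM2, 75 regions, was 51.7 with the stricter intervals, 60 with lists of equal length and 52 with a 20 kb locus.

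Leaving out each library gave 8 to 107 higher and 20 to 71 lower loci in SmoM2-Sox9cKO against SmoM2, 421 to 598 higher and 337 to 523 lower in SmoM2-Sox9cKO against WT, and 562 to 856 higher and 537 to 844 lower in SmoM2 against WT. The counts of SmoM2-Sox9cKO against SmoM2 were 8 higher and 20 lower without SmoM2-Sox9cKO replicate 3, 13 and 20 without SmoM2 replicate 1, 27 and 20 without SmoM2 replicate 2, 107 higher without SmoM2 replicate 3, and 42 and 41 lower without WT replicates 2 and 3. In SmoM2-Sox9cKO against WT, 337 were lower without SmoM2-Sox9cKO replicate 2 and 344 without WT replicate 2. In SmoM2 against WT, 548 were lower without SmoM2 replicate 1 and 537 without WT replicate 3. The sums over the 7 loci ranged from 27 to 43.5 regions in SmoM2-Sox9cKO, 68.5 to 80 in SmoM2 and 0.5 to 2.5 in WT. Covered base pairs give no mean number of regions, and Trap1a has no region in a 20 kb locus and missed the filter in the 6-library fit against WT, so these have no value. Occupied regions follow the authors' threshold and the unknown depth of each library, and a region missing from a list may lie just under that threshold.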
